A study of Rattus norvegicus with 6 samples.

Results

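The genes described here carry out the synthesis and reception of prostaglandin E2 and the first step of leukotriene synthesis, and their transcripts were compared between primary rat microglia stimulated with LPS/siponimod and with LPS. They were chosen by name as well-known members of the pathway. The 10 names were Ptgs1, Ptgs2, Ptges, Ptges2, Ptges3, Pla2g4a, Ptger2, Ptger4, Alox5 and Alox5ap. Of these, 9 were matched to a row among the 23139 genes listed, and Ptges was not analysed here. In the cells studied, the cyclooxygenase Ptgs2 and the prostaglandin E2 receptor Ptger2 were upregulated with LPS/siponimod when all 6 libraries were used. Of the 6 fits that left out 1 library, 5 kept the call of Ptgs2 and 2 that of Ptger2. Alox5 was lower in all 3 LPS/siponimod libraries, by an amount that did not pass the threshold with all 6 libraries in the quasi-likelihood test. It passed in a comparison within pairs and in some other fits.

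All cells came from cortices of Wistar rats at postnatal day 1, were shaken off mixed glial cultures and were purified on magnetic beads for CD11b/c, a surface antigen of microglia and other myeloid cells. Both groups received lipopolysaccharide (LPS, an endotoxin of Gram-negative bacteria that activates microglia) at 100 ng/mL, the LPS group together with the solvent DMSO and the LPS/siponimod group together with 50 µM siponimod, a modulator of sphingosine 1-phosphate receptors used in multiple sclerosis. Each group comprised 3 biological replicates of polyA-captured RNA, and nothing further states whether these came from separate litters, so that p-values measure the spread between these libraries. Cells without LPS were not analysed here. Each value therefore compares both stimulations and not a stimulated with a resting state, and the model is that of neonatal cells kept in serum-containing culture.

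Prostaglandins and leukotrienes are made from arachidonic acid, a fatty acid that cytosolic phospholipase A2 (encoded by Pla2g4a) cuts out of membrane phospholipids. The cyclooxygenases encoded by Ptgs1 and Ptgs2 convert it to prostaglandin H2, from which prostaglandin E synthases make prostaglandin E2, and this mediator leaves the cell and acts through receptors such as those encoded by Ptger2 and Ptger4, which raise cyclic AMP. The 5-lipoxygenase encoded by Alox5, with its activating membrane protein encoded by Alox5ap, draws on the same arachidonic acid to begin leukotriene synthesis. In microglia, Ptgs2 is known as an inducible gene of the inflammatory response, and Ptgs1 as the constitutive form.

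Total counts were 39484979, 38301365 and 38080379 in LPS replicates 1, 2 and 3, and 46643859, 43336006 and 38857441 in LPS/siponimod replicates 1, 2 and 3. Levels are given as normalized CPM, in which read counts are scaled to a common library total with the TMM method. They are not corrected for transcript length, and are therefore compared between libraries and not between genes. Of the microglia and macrophage markers, 12 of 12 reached a CPM of at least 1 in a group mean, Cx3cr1 with LPS only (2.68 against 0.211). So did the 4 endothelial markers with a row, 5 of 9 oligodendrocyte lineage markers and 0 of 5 lymphocyte markers. This limit thus does not by itself tell cell types apart. The summed CPM of the microglia and macrophage markers was 9696, 7882 and 5172 with LPS against 4142, 5118 and 3026 under LPS/siponimod. In bulk RNA, fewer cells of a type and less RNA per cell cannot be told apart.

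LPS replicate 3 stood apart from the other LPS libraries. Its log CPM over genes correlated with those of LPS replicates 1 and 2 at 0.935 and 0.945, against 0.983 between replicates 1 and 2. It held the highest Ptgs2 and the lowest Ptgs1 value of its group. The summed CPM of 9 oligodendrocyte lineage markers was 36.0 in it, against 5.37 in each of the other LPS libraries, with 515 counts of Olig1 against 1 and 5. For this reason the members are given below with and without that library.

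A differentially expressed gene (DEG) was defined by a fold change (FC) of at least 1.5 in either direction together with an adjusted p not above 0.05 in edgeR's quasi-likelihood test with Benjamini-Hochberg adjustment over 11977 genes. The comparison called 25.3% of these genes, 13.6% upregulated and 11.7% downregulated. All 9 members passed the filter on low counts and were tested. Of them, 2 were DEGs, both upregulated, and none was downregulated, so that the share of members called was close to that of all genes. At an unadjusted quasi-likelihood p under 0.05 there were also 2 members with a negative log2 FC, beside 21.7% of all genes with such a p and sign. DESeq2 called 1 member downregulated, and 16.1% of all genes. Of the 9 members, 1 was called in each fit without LPS replicate 1 and without LPS/siponimod replicates 1 or 3, where 13.9%, 6.22% and 8.50% of all genes were called, none without LPS replicate 2 (5.16% of all genes) and 4 without LPS replicate 3 (30.3%). The median log2 FC of the members was -0.06, against -0.02 for all genes tested. For 6 of the 9 members the CPM of the groups did not overlap, which was also the case for 49.3% of all genes. Ptgs1, Ptgs2 and Ptger2 were higher in every LPS/siponimod library than in any LPS library, and Ptges2, Pla2g4a and Alox5 were lower.

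**Figure D1:**
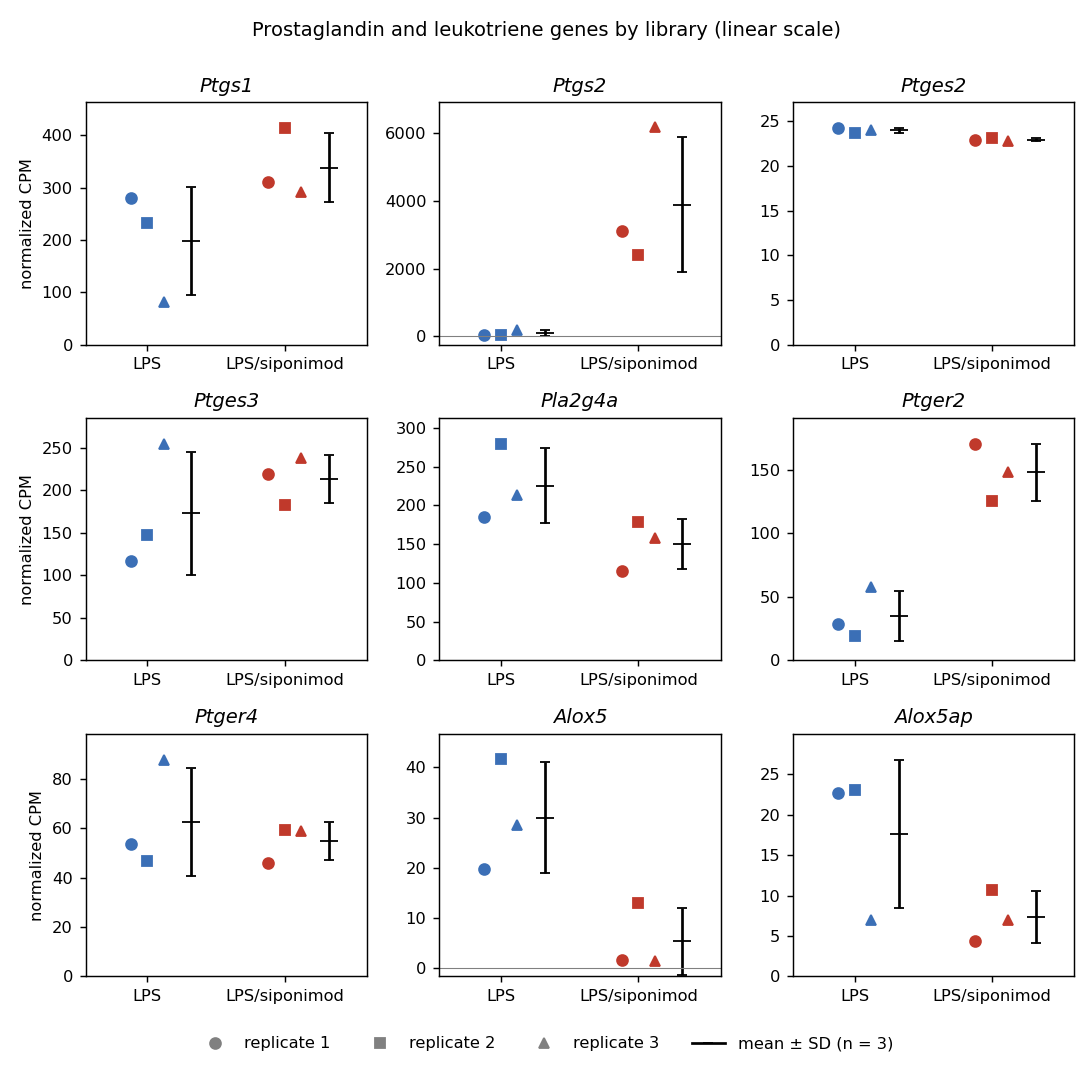
Normalized CPM (y axis, linear scale, 1 panel per gene with its own range) of the 9 members in each LPS (blue) and LPS/siponimod (red) library, with symbols for the replicate numbers and bars for the mean ± SD of 3 libraries. Ptgs2 stands at 187 or below in the LPS libraries and at 2401 or above in the LPS/siponimod libraries, Ptger2 separates without overlap, Ptges2 is nearly level, and LPS replicate 3 (blue triangle) lies away from replicates 1 and 2 for Ptgs1, Ptges3, Ptger4 and Alox5ap.

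The cyclooxygenases are described first, since they hold the member with the largest change. The 250 bases before the transcription start of 3 members are shown, those of both cyclooxygenases, because one was a DEG and the other was not, and that of Ptger2, the other DEG. They were read from RefSeq promoter sequences of the rat assembly GRCr8, in which 8 of the 10 names were matched. All 3 lie on the plus strand, Ptgs2 at chr13:64713813-64714062, Ptgs1 at chr3:39981169-39981418 and Ptger2 at chr15:20696796-20697045, upstream of the first exon. Capitals mark matches on either strand to any of 5 motifs that do not contain one another. The cyclic AMP response element is searched by its half-site, spelled TGACG. An E-box is spelled CACGTG, as bound by basic helix-loop-helix factors. A TATA box, which positions the polymerase, is spelled TATAAA. The AP-1 site, bound by Fos and Jun proteins, is spelled TGANTCA. Finally, the site of the C/EBP family is spelled TTNNGNAA, in which N stands for any base.
Ptgs2: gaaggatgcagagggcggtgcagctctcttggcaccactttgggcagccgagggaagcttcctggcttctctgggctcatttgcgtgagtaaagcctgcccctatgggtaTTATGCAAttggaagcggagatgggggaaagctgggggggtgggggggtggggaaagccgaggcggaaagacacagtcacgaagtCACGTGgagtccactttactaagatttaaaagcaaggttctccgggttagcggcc
Ptgs1: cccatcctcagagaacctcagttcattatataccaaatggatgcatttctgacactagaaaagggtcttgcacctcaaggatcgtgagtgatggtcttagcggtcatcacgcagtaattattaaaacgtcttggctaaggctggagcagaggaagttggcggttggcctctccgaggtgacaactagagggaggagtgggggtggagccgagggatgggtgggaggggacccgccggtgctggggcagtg
Ptger2: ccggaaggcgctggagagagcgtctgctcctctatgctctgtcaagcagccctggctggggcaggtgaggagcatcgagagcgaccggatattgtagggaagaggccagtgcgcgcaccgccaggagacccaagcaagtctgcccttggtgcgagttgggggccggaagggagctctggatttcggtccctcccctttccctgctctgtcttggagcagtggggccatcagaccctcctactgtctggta

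The Ptgs2 stretch held a C/EBP site beginning 140 bases and an E-box beginning 55 bases before the start. These letters occur in 37.2% and 5.59% of the 33469 RefSeq promoter stretches of the same length, and the letters of the half-site, the AP-1 site and the TATA box in 18.2%, 6.34% and 12.9%. The stretches of Ptgs1 and Ptger2 held none of these motifs. G and C made up 57.2%, 54.4% and 62.8% of the bases of Ptgs2, Ptgs1 and Ptger2. A match describes the letters in this window and is not evidence of binding, and a lack of matches says only that these letters are not in it.

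Ptgs2, which encodes the inducible cyclooxygenase, had 1430, 1116 and 6935 counts in LPS replicates 1, 2 and 3 and 144018, 107198 and 253022 in LPS/siponimod replicates 1, 2 and 3. In normalized CPM these were 38.6, 29.0 and 187 against 3098, 2401 and 6168. Replicate 3 was the highest library of both groups, and the lowest LPS/siponimod library lay far above the highest LPS library. Ptgs2 thus rose from 84.7 ± 88.4 to 3889 ± 2004 CPM (mean ± SD, n = 3), a log2 FC of 5.52 ± 0.94 (SE, quasi-likelihood adjusted p = 0.0123). Its FC of 45.9 was the 63rd largest in size among the genes tested. The 3 pairs of same-numbered libraries gave log2 differences of 6.33, 6.37 and 5.05. A single gene then took up 0.309%, 0.247% and 0.651% of all counts in the LPS/siponimod libraries, against 0.00362%, 0.00291% and 0.0182% in the LPS libraries. Leaving out LPS replicate 3 gave a log2 FC of 6.85 (adjusted p = 0.00999 with the quasi-likelihood test). Without LPS replicate 2 it was 5.14 with an adjusted p of 0.0508, in a fit that called only 5.16% of genes, so that Ptgs2 was then no DEG.

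Ptgs1, the constitutive cyclooxygenase, had CPM of 280, 233 and 82.5 in LPS-treated cells against 310, 413 and 291 with LPS/siponimod. The groups did not overlap, but LPS replicate 1 lay close below the lowest LPS/siponimod library and LPS replicate 3 far below it. The means were 198 ± 103 and 338 ± 66.0 CPM (SD, n = 3), with a log2 FC of 0.77 ± 0.44 (SE, quasi-likelihood adjusted p = 0.225), and Ptgs1 was not a DEG in any alternative fit. Within the pairs the log2 difference was 0.15, 0.83 and 1.82. Leaving out LPS replicate 3 lowered the log2 FC to 0.40 (quasi-likelihood adjusted p = 0.178).

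Since a ratio within a library needs no scaling between libraries, Ptgs2 counts were also set against those of Ptgs1 and Alox5. The ratio of Ptgs2 to Ptgs1 counts was 0.138, 0.124 and 2.26 in LPS replicates 1, 2 and 3 against 9.99, 5.81 and 21.2 in LPS/siponimod replicates 1, 2 and 3. These ratios are not corrected for transcript length, and only their change between libraries is read. LPS replicates 1 and 2 had the lowest ratios, and every LPS/siponimod library lay above every LPS library. On the log2 scale the mean ratio was -1.56 ± 2.37 with LPS and 3.42 ± 0.94 with LPS/siponimod (SD, n = 3), a difference of 4.98 ± 1.47 (SE). The exact two-sided permutation test gave p = 0.1, the smallest value that 3 against 3 libraries allow. Ptgs1 ranged from 82.5 to 413 CPM over all libraries, proportionally less than the gap between 187 and 2401 CPM that parted the groups for Ptgs2. The separation of these ratios and its p therefore followed from the values of Ptgs2 and add no evidence to them. Ratios of Ptgs2 to Alox5 counts were 1.96, 0.695 and 6.54 against 2087, 184 and 4362, so that the groups did not overlap either. Since Ptgs2 was higher and Alox5 lower in every LPS/siponimod library, this separation and its permutation p were fixed beforehand. They add no evidence to the values of each gene. The log2 difference was 9.15 ± 1.66 (SE, exact two-sided permutation p = 0.1, again the smallest possible). Both differences were larger without LPS replicate 3, at 6.35 and 9.98.

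**Figure D2:**
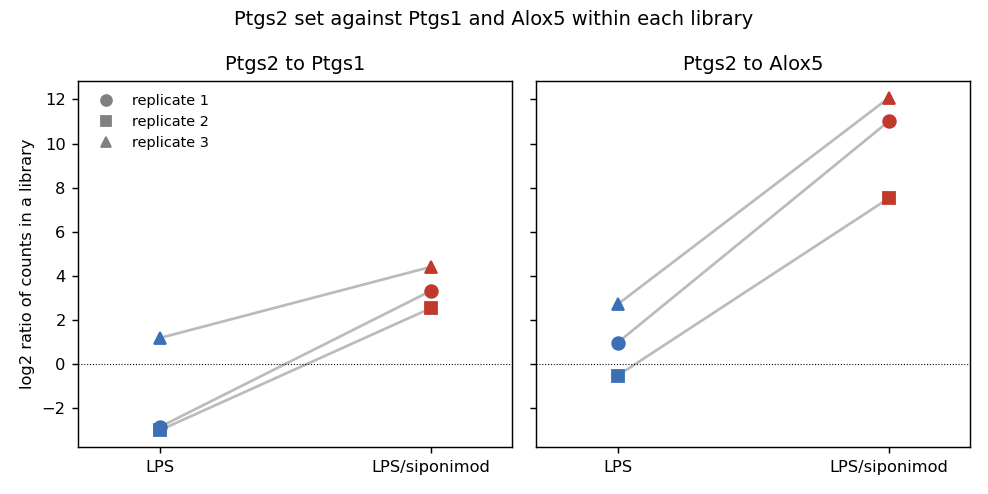
Log2 ratio of Ptgs2 to Ptgs1 counts (left) and of Ptgs2 to Alox5 counts (right) within each library (y axis), by group (x axis), with grey lines joining libraries of the same replicate number. All lines ascend, and the LPS library of replicate 3 starts highest in both panels, at 2.26 and 6.54 on the linear scale.

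The 2 prostaglandin E synthases tested, Ptges2 and Ptges3, did not pass the threshold with all 6 libraries, and Ptges was not analysed. Ptges2, a membrane-associated synthase, had CPM of 24.2, 23.7 and 24.0 in LPS-treated cells against 22.9, 23.1 and 22.8 with LPS/siponimod. These 6 values were the most even of all members, the groups being separate by a narrow margin. The means were 24.0 ± 0.241 and 22.9 ± 0.148 CPM (SD, n = 3) and the log2 FC -0.06 ± 0.10 (SE, quasi-likelihood adjusted p = 0.666). The sign turned when libraries were scaled by their totals alone (0.01), a scaling under which the median of all genes was 0.057. Leaving out LPS replicate 3 left the log2 FC at -0.06 (adjusted p = 0.658).

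Ptges3, a cytosolic synthase that also serves as a co-chaperone of Hsp90, had CPM of 117, 148 and 254 with LPS against 219, 183 and 238 under LPS/siponimod. LPS replicate 3 was the highest of all 6 libraries, and the groups overlapped. The means were 173 ± 72.0 and 213 ± 28.1 CPM (SD, n = 3), with a log2 FC of 0.30 ± 0.30 (SE, quasi-likelihood adjusted p = 0.475). Without LPS replicate 3, Ptges3 was an upregulated DEG (log2 FC 0.69, adjusted p = 0.0406 in the quasi-likelihood test).

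Pla2g4a, whose product releases arachidonic acid, had CPM of 185, 279 and 213 in LPS-treated cells against 115, 178 and 158 with LPS/siponimod. Every LPS/siponimod library was below every LPS library, and replicate 2 was the highest of both groups. The means were 225 ± 48.4 and 150.4 ± 32.1 CPM (SD, n = 3) and the log2 FC -0.58 ± 0.23 (SE, quasi-likelihood adjusted p = 0.102). The pairs gave -0.68, -0.65 and -0.43. With the replicate number as a block the log2 FC was -0.59, just past the FC limit. The quasi-likelihood adjusted p was then 0.0232, in a fit that called 34.0% of all genes. Leaving out LPS replicate 3 gave a log2 FC of -0.62 and an adjusted p of 0.119. On rat chromosome 13 of the RefSeq annotation only 2 genes, neither of them protein coding, lie between Ptgs2 and Pla2g4a.

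Of the prostaglandin E2 receptors, Ptger2, which couples to the stimulatory G protein, had 1053, 754 and 2134 counts in LPS replicates 1, 2 and 3 and 7910, 5609 and 6066 in LPS/siponimod replicates 1, 2 and 3. The corresponding CPM were 28.4, 19.6 and 57.4 against 170.2, 126 and 148. As with Ptgs2, LPS replicate 3 was the highest LPS library and the groups did not overlap. Ptger2 rose from 35.1 ± 19.8 to 148 ± 22.3 CPM (SD, n = 3), an FC of 4.21 or a log2 FC of 2.07 ± 0.41 (SE, quasi-likelihood adjusted p = 0.0173), and by 2.58, 2.68 and 1.36 on the log2 scale within the pairs. Leaving out LPS replicate 3 gave a log2 FC of 2.63 (adjusted p = 0.00999). The call depended on which library was left out: in 4 of the 6 fits that left out 1 library the quasi-likelihood adjusted p lay between 0.0520 and 0.0716, namely without LPS replicates 1 or 2 and without LPS/siponimod replicates 1 or 3, with the log2 FC between 1.81 and 2.08. It held without LPS replicate 3 and without LPS/siponimod replicate 2 (adjusted p = 0.0295).

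Ptger4, the receptor that also couples to the stimulatory G protein, had CPM of 53.6, 46.5 and 87.7 against 45.9, 59.4 and 59.0. The groups overlapped, and LPS replicate 3 was again the highest library. The means were 62.63 ± 22.002 and 54.8 ± 7.68 CPM (SD, n = 3), with a log2 FC of -0.19 ± 0.26 (SE, quasi-likelihood adjusted p = 0.601). Without LPS replicate 3 the log2 FC was 0.13, of the opposite sign and also not past the threshold. Whether the receptors differed in their response was not tested.

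Alox5, which encodes 5-lipoxygenase, had 728, 1606 and 1061 counts in LPS-treated cells against 69, 581 and 58 with LPS/siponimod. In CPM these were 19.6, 41.7 and 28.5 against 1.48, 13.0 and 1.41. All LPS/siponimod libraries were below all LPS libraries, and replicate 2 was the highest of both groups, its LPS/siponimod library lying well above the other LPS/siponimod libraries. The means were 29.9 ± 11.1 and 5.30 ± 6.67 CPM (SD, n = 3), the log2 FC was -2.50 ± 0.94 (SE), and the quasi-likelihood adjusted p was 0.0921. Within the pairs the log2 difference was -3.68, -1.68 and -4.29. With the replicate number as a block, Alox5 was a downregulated DEG (log2 FC -3.20, adjusted p = 0.0154 in the quasi-likelihood test). It was also one by DESeq2 (-2.51, adjusted p = 0.0101), by limma-voom (-3.23, 0.0276), by edgeR's likelihood ratio test (-2.50, 0.0250) and without LPS/siponimod replicate 2 (-4.37, 0.00711 with the quasi-likelihood test). Without LPS replicate 3 it was at -2.53 with an adjusted p of 0.116.

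Alox5ap, which encodes the 5-lipoxygenase activating protein, had CPM of 22.7, 23.1 and 6.99 with LPS against 4.35, 10.7 and 6.97 under LPS/siponimod. LPS replicates 1 and 2 were above all other libraries, whereas LPS replicate 3 fell among the LPS/siponimod libraries. The means were 17.6 ± 9.19 and 7.33 ± 3.18 CPM (SD, n = 3) and the log2 FC -1.26 ± 0.53 (SE, quasi-likelihood adjusted p = 0.12). The pairs gave -2.37, -1.11 and -0.0047. Without LPS replicate 3, Alox5ap was a downregulated DEG (log2 FC -1.64, quasi-likelihood adjusted p = 0.0263). In that fit, which called 30.3% of all genes, 4 members were DEGs, with Ptgs2, Ptger2 and Ptges3 upregulated and Alox5ap downregulated. The fit with the block, which called 34.0% of all genes, also called 4, with Ptgs2 and Ptger2 upregulated and Pla2g4a and Alox5 downregulated. Both leukotriene genes had a negative log2 FC in all 14 alternative fits.

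**Figure D3:**
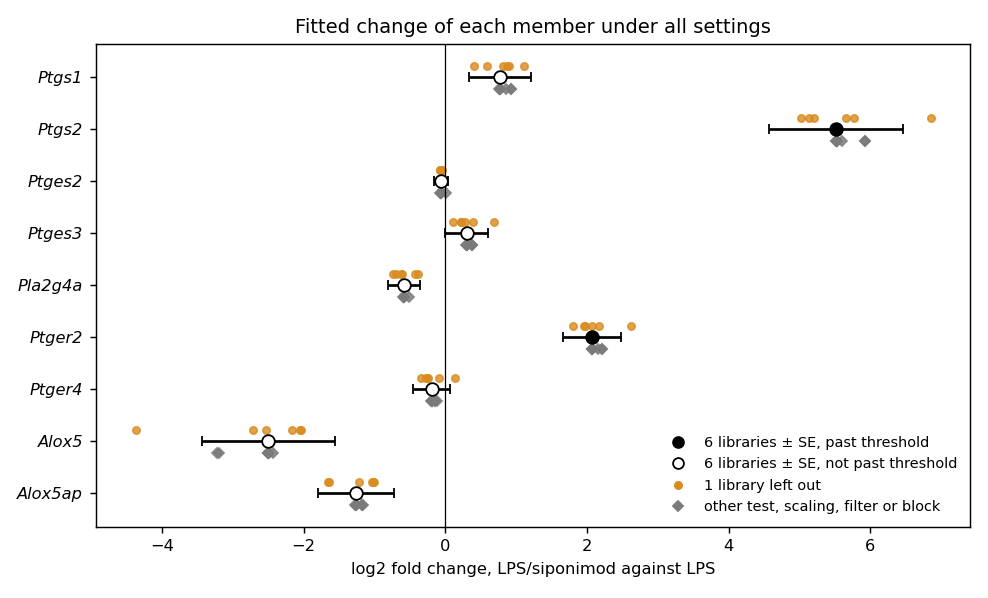
Log2 FC of LPS/siponimod against LPS (x axis) for each member. Black circles with bars give the value from 6 libraries ± SE (filled where the DEG threshold was passed), orange points the 6 fits with 1 library left out and grey diamonds other tests, scalings, filters and the replicate block. Ptgs2 stays above 5 in each of them, and Alox5 ranges from -4.37 to -2.04.

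The other genes of the pathway comprised 63 names, of which 57 were matched to a row and 33 passed the filter on low counts. Of the 33, 5 were upregulated DEGs, 4 were downregulated DEGs and 24 did not pass the threshold, and their median log2 FC was 0.01, close to that of all genes, of which 25.3% were DEGs. Without LPS replicate 2 and without LPS/siponimod replicates 1 and 3, the genes called numbered 3, 5 and 4 in fits that called 5.16%, 6.22% and 8.50% of all genes, and without LPS replicate 3 all of the 9 but Ptgir were also DEGs. With the replicate block, 7 of the 33 were upregulated and 9 were downregulated, beside 17.7% and 16.4% of all genes. Several genes typical of other cells were at 0 in all libraries, among them Ptgds, which makes prostaglandin D2 in meninges, and the receptor gene Ptger3, while Ltc4s, which makes leukotriene C4, was at a mean of 0.00899 CPM with LPS and 0 with LPS/siponimod.

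Among 15 lipases that can supply arachidonic acid, 9 were tested, 1 was upregulated and 1 downregulated. With the replicate block 2 were upregulated and 2 downregulated, beside 17.7% and 16.4% of all genes. The upregulated DEG gained there was Pla2g12a (log2 FC 0.588, quasi-likelihood adjusted p = 0.0464). Mgll, which breaks the endocannabinoid 2-arachidonoylglycerol into arachidonic acid and glycerol, had CPM of 6.80, 8.51 and 8.21 with LPS against 363, 60.2 and 102 under LPS/siponimod. The LPS values were close together and the LPS/siponimod values spread widely, without overlap. Its log2 FC was 4.48 ± 0.74 (SE, quasi-likelihood adjusted p = 0.0112), and without LPS replicate 2 the adjusted p was 0.0597. Leaving out LPS/siponimod replicate 1, its highest library, gave a log2 FC of 3.36 (adjusted p = 0.0173, quasi-likelihood test). Dagla, which makes 2-arachidonoylglycerol, fell from 15.2, 19.6 and 13.6 CPM to 1.51, 4.95 and 3.36 CPM (log2 FC -2.30, SE 0.44, adjusted p = 0.016, quasi-likelihood test). Its call was lost without LPS replicate 2 (adjusted p = 0.0669) and without LPS/siponimod replicate 3 (0.0611). Daglb, its relative, had values of 128, 136 and 86.8 against 52.1, 101 and 55.9 (-0.75, adjusted p = 0.115), and was a downregulated DEG with the block (0.0345). Dagla and Mgll act in sequence, and their transcripts moved in opposite directions in all 3 pairs.

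Of 4 genes that attach arachidonic acid to coenzyme A or return it to membranes, 1 was a DEG. Acsl3, an acyl-CoA synthetase, rose from 12.4, 10.6 and 11.6 CPM to 23.0, 27.2 and 27.4 CPM (log2 FC 1.17, SE 0.14, quasi-likelihood adjusted p = 0.00657), and was a DEG in all 6 fits with 1 library left out. Acsl4, the synthetase with a preference for arachidonic acid, had means of 557 and 611 CPM (log2 FC 0.13, adjusted p = 0.702). Lpcat3, which returns arachidonic acid to phospholipids, had means of 228 and 143 CPM (-0.68, adjusted p = 0.0729) and was a downregulated DEG with the block (adjusted p = 0.033, quasi-likelihood test), by DESeq2 (0.0273) and without LPS replicate 3 (0.0332).

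The 3 further prostanoid synthases tested had different values. Hpgds, the haematopoietic synthase of prostaglandin D2, fell from 312, 573 and 681 CPM to 38.8, 143 and 96.4 CPM (log2 FC -2.49, SE 0.54, quasi-likelihood adjusted p = 0.0215). All LPS/siponimod libraries were below all LPS libraries, and the call was lost without LPS replicate 2 and without LPS/siponimod replicates 1 or 3. Akr1b1, an aldose reductase that can also make prostaglandin F2 alpha, rose from 624, 284 and 339 CPM to 8266, 6194 and 9099 CPM (log2 FC 4.24, SE 0.41, adjusted p = 0.00496) and was a DEG in all 6 fits with 1 library left out. How reads shared with its close relatives were divided is not stated, and Akr1b8 (2.84, adjusted p = 0.0201), Akr1b10 (2.73, 0.0109) and a listed pseudogene were also upregulated, so that the division of the counts among these genes is uncertain. Tbxas1, the thromboxane synthase, had means of 119 CPM in both groups (log2 FC 0.01, adjusted p = 0.974, quasi-likelihood test).

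Of the genes for breakdown and transport of prostaglandins, 6 were listed, 4 were tested and none was a DEG. An unadjusted quasi-likelihood p under 0.05 was found for 2 of them, and for 43.7% of all genes. DESeq2 called 0 of them, and 32.5% of all genes. The lowest adjusted p was that of Ptgr2, a prostaglandin reductase (19.7 and 14.7 CPM, log2 FC -0.42, quasi-likelihood adjusted p = 0.071). Zadh2, the listed name of the prostaglandin reductase Ptgr3, had means of 4.38 and 7.99 CPM (0.87, adjusted p = 0.1) and was an upregulated DEG with the block (0.91, adjusted p = 0.0249). Hpgd, which inactivates prostaglandin E2 by oxidation, was at 0.00897 CPM with LPS and 0 with LPS/siponimod. Among the receptors for other prostanoids, Tbxa2r, the thromboxane receptor, rose from 7, 6 and 9 counts to 47, 23 and 31 counts (log2 FC 1.94, SE 0.44, adjusted p = 0.0244). It was a DEG in 2 of the 6 fits with 1 library left out, those without LPS replicate 3 and without LPS/siponimod replicate 2, with a quasi-likelihood adjusted p of up to 0.148 in the others, and was not one without the filter on low counts (0.0562). Ptgir, the prostacyclin receptor, fell from 162, 118 and 175 counts to 84, 99 and 93 counts (-0.95, SE 0.26, adjusted p = 0.041), and was a DEG in 0 of the 6 fits with 1 library left out, where its quasi-likelihood adjusted p ranged from 0.0701 to 0.155. The call was also lost with scaling by library totals alone (0.0542) and without the filter on low counts (0.0653). Ptger1, a further prostaglandin E2 receptor, had means of 50.1 and 32.3 CPM (-0.63, adjusted p = 0.12), and was a downregulated DEG with the block (adjusted p = 0.0273).

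Downstream of 5-lipoxygenase, 1 of 4 tested genes of leukotriene synthesis and export was a DEG. Abcc1, the transporter that exports leukotriene C4, rose from 68.0, 71.4 and 69.2 CPM to 107, 116 and 123 CPM (log2 FC 0.72, SE 0.11, quasi-likelihood adjusted p = 0.00955). The 3 values of each group lay close together, and only without LPS replicate 2 was the call lost (adjusted p = 0.0502). Lta4h, which makes leukotriene B4, had means of 46.4 and 34.1 CPM (-0.44, adjusted p = 0.494). Of the receptors, Cysltr2, for cysteinyl leukotrienes, fell from 16, 26 and 11 counts to 2, 7 and 2 counts (log2 FC -2.45, SE 0.67, adjusted p = 0.0396, quasi-likelihood test). Of the 6 fits with 1 library left out, those without LPS replicate 3 and without LPS/siponimod replicate 2 (log2 FC -3.27) called it, the adjusted p reaching 0.182 in the others, and it was not a DEG without the filter on low counts (0.0802). Cmklr1, a receptor for chemerin and lipid mediators, had CPM of 230, 120 and 55.3 against 45.0, 51.7 and 27.6, without overlap (log2 FC -1.71, SE 0.53, adjusted p = 0.0554), and was a downregulated DEG with the block (adjusted p = 0.0182), by DESeq2 (0.0045), by the likelihood ratio test (0.00786) and without LPS replicate 3 (0.0172). No gene of the other lipoxygenases and epoxide hydrolases was a DEG among 4 tested. An unadjusted quasi-likelihood p under 0.05 was found for 0 of them, beside 43.7% of all genes. DESeq2 called 0 of them, beside 32.5% of all genes. Alox12 had means of 8.19 and 10.4 CPM (0.34, adjusted p = 0.59), and Alox15 of 5.12 and 2.23 CPM (-1.20, adjusted p = 0.364). Alox15 was a downregulated DEG with the block (-1.61, adjusted p = 0.045), and its log2 FC was -2.51 without LPS/siponimod replicate 2 (0.101, quasi-likelihood test). Ephx1, an epoxide hydrolase, was removed by the filter with 44, 7 and 68 counts against 6, 5 and 9. It passed the filter in some fits with 1 library left out. Without LPS replicate 2 it was a downregulated DEG (log2 FC -3.26, quasi-likelihood adjusted p = 0.0496). Without LPS/siponimod replicates 1, 2 or 3 it was not one (adjusted p = 0.195, 0.150 and 0.119).

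**Figure D4:**
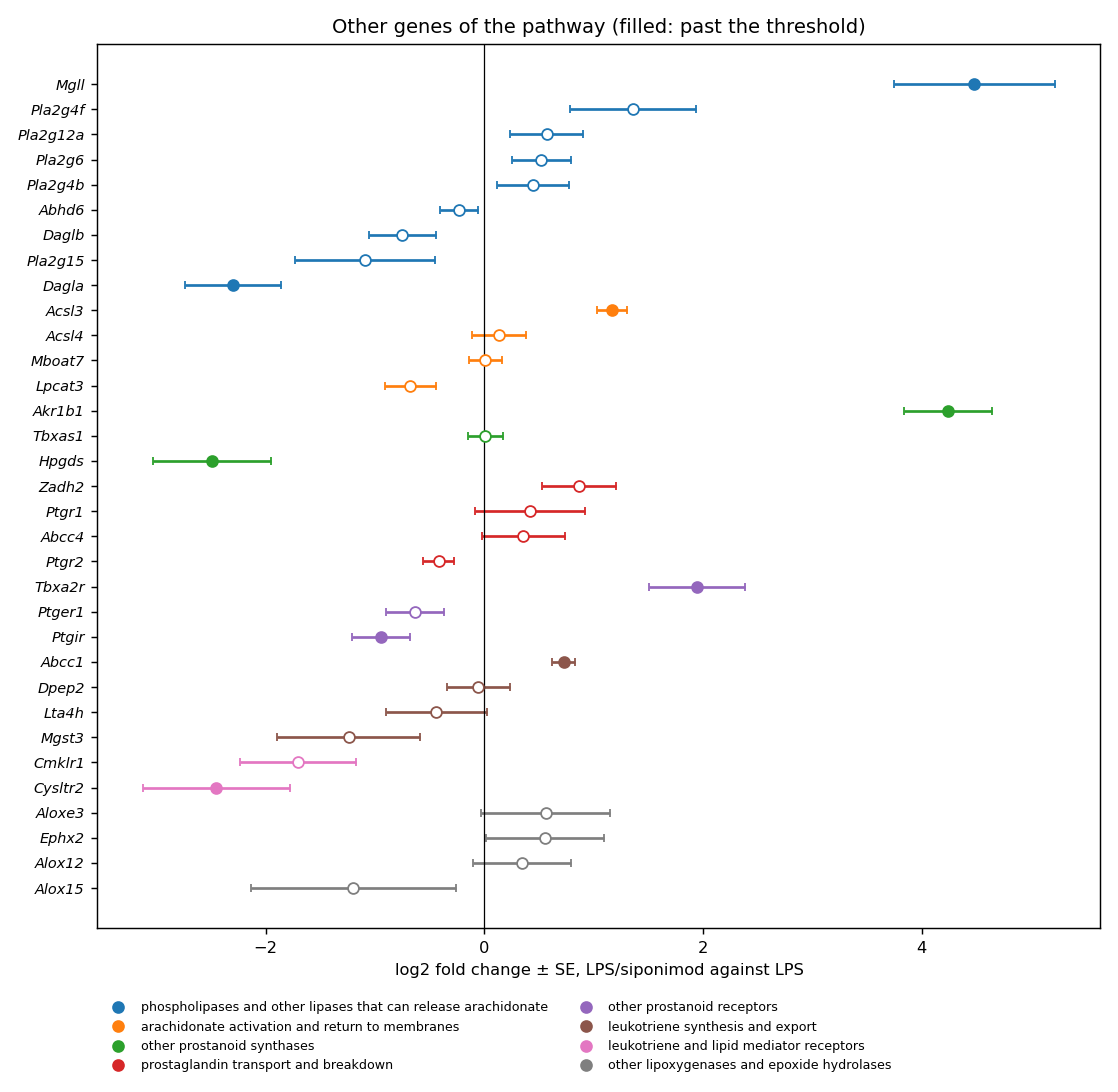
Log2 FC ± SE of LPS/siponimod against LPS (x axis) for the 33 tested genes of the pathway outside the members, ordered and coloured by role, with filled circles for DEGs. Mgll (4.48) and Akr1b1 (4.24) lie farthest right and Hpgds (-2.49) and Cysltr2 (-2.45) farthest left.

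Regulators of Ptgs2 were examined from a list of 34 genes, chosen with earlier results of these data known. Of these, 30 were tested, 10 were upregulated DEGs and none was a downregulated DEG. Among all genes 25.3% were DEGs, 13.6% upregulated and 11.7% downregulated. With a negative log2 FC there were 2 regulators at an unadjusted quasi-likelihood p under 0.05 and 1 called by DESeq2, where 21.7% and 16.1% of all genes were. The fits without LPS replicate 2 and without LPS/siponimod replicates 1 and 3 called 3, 4 and 5 regulators and 5.16%, 6.22% and 8.50% of all genes, and that without LPS replicate 3, with 30.3% of all genes, called 9 of the 10, Crem being the exception. The median log2 FC was 0.55, against -0.02 for all genes. Transcription factors known to act on the Ptgs2 promoter contributed 9 of the DEGs among 17 tested, all upregulated, beside 13.6% of all genes. Atf4, a factor of the integrated stress response, rose from 157, 124 and 160 CPM to 861, 677 and 860 CPM (log2 FC 2.44, SE 0.19, quasi-likelihood adjusted p = 0.00321). Jun, a component of AP-1, rose from 124, 107 and 76.4 CPM to 399, 319 and 377 CPM (1.83, adjusted p = 0.00655), and Rela, a subunit of NF-kB, by 0.80 on the log2 scale (adjusted p = 0.00886). Atf4 and Jun were DEGs in all 6 fits with 1 library left out. Fosb (3.07, 0.0122), Atf2 (0.66, 0.0138), Cebpb (0.95, 0.0321), Jund (1.04, 0.0337), Rel (1.06, 0.038) and Crem (1.16, 0.0413) were the remaining upregulated DEGs of this kind (log2 FC, quasi-likelihood adjusted p). Leaving out 1 library kept the call of Rela in 5 of the 6 fits, of Fosb in 4 (log2 FC 3.73 without LPS replicate 2), of Atf2 in 3, of Cebpb and Jund in 2 and of Crem and Rel in 1, and Crem was not called without the filter on low counts (0.0515). Cebpd had means of 113 and 50.7 CPM (-1.16, adjusted p = 0.051) and was a downregulated DEG with the block (0.0262) and by DESeq2 (0.00704) among other fits, while Creb1 (-0.24, 0.271) and Nfkb1 (-0.25, 0.358) did not pass.

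Of 9 genes for proteins that bind AU-rich elements or alter mRNA stability, none was a DEG by the quasi-likelihood test, 3 had an unadjusted p under 0.05, as did 43.7% of all genes, and DESeq2 called 1, and 32.5% of all genes. Khsrp, a protein that promotes mRNA decay, had a quasi-likelihood adjusted p of 0.0312, but its log2 FC of 0.50 was below the FC limit. Zfp36, which encodes tristetraprolin, had a log2 FC of -0.46 (adjusted p = 0.30), Zfp36l2 of 1.29 (0.0517, with the block an upregulated DEG at 0.0209, and the one called by DESeq2) and Elavl1, a stabilizing protein, of 0.27 (0.333). Hnrnpd (-0.58, 0.113), Mapkapk2 (-0.32, 0.224) and Celf2 (-0.60, 0.231) had negative values. Without LPS replicate 3, Celf2 was a downregulated DEG (-0.92, 0.0164) and Zfp36l2 an upregulated one (0.95, 0.0160). That fit called 30.3% of all genes. Celf2 was at -0.25 without LPS replicate 2 (quasi-likelihood adjusted p = 0.649). Of 4 tested inhibitors, Tsc22d3, a glucocorticoid-induced leucine zipper protein, rose from 15.6, 12.8 and 8.56 CPM to 64.3, 34.1 and 38.4 CPM (1.89, SE 0.33, quasi-likelihood adjusted p = 0.013) and was a DEG in all fits with 1 library left out but that without LPS replicate 2 (0.0621). Anxa1, an inhibitor of phospholipase A2 activity, had means of 9.31 and 40.8 CPM (2.13, SE 0.80, adjusted p = 0.0916). It was an upregulated DEG without LPS replicate 1 (log2 FC 3.30, adjusted p = 0.0412) and by DESeq2 (0.0131), limma-voom (0.0479) and the likelihood ratio test (0.0264). Tnfaip3, a brake on NF-kB signalling, had a log2 FC of 0.65 (adjusted p = 0.0742). With the replicate block Anxa1 (2.46, adjusted p = 0.0326) and Tnfaip3 (0.68, 0.0236) were upregulated DEGs as well, so that 3 of the 4 inhibitors were called in a fit that called 34.0% of all genes. Nfkbia, the inhibitor of NF-kB, had a log2 FC of -0.01.

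The genes whose log2 CPM followed that of Ptgs2 most closely over the 6 libraries were AABR07062138.2, C1galt1, Sin3a, Zzz3 and Aup1, among 10816 genes with a mean of at least 1 CPM. Their Pearson correlations were 0.998, 0.998, 0.997, 0.997 and 0.996, a description of 6 points in groups that stand apart. Sin3a had CPM of 49.6, 47.3 and 56.6 with LPS against 68.6, 67.0 and 71.1 under LPS/siponimod, a similar order of libraries over a far smaller range than that of Ptgs2. C1galt1, a glycosyltransferase, had CPM of 7.66, 7.71 and 12.7 against 28.5, 24.5 and 31.7.

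Markers of cells moved with the groups as well, and their part in the values of the members was not tested. Of the 12 microglia and macrophage markers, Aif1 (log2 FC -1.88), Itgam (-0.87) and Cx3cr1 (-3.65) were downregulated DEGs and none was upregulated. Leaving out 1 library kept the call of Aif1 and Cx3cr1 in 2 of the 6 fits and of Itgam in 3, none of them that without LPS replicate 2 or without LPS/siponimod replicates 1 or 3, and moved the log2 FC of Cx3cr1 between -5.01 and -2.71. Cx3cr1 was not called without the filter on low counts (0.0535). With the replicate block, 7 of the 12 were downregulated, in a fit that called 34.0% of all genes. Csf1r, with the most counts of them, had means of 2107 and 811 CPM (quasi-likelihood adjusted p = 0.106, with the block 0.0375 at a log2 FC of -1.33), and Cd68 of 1074 and 1076 CPM. The 6 neutrophil markers summed to 237, 205 and 81.5 CPM with LPS and 23.5, 54.1 and 6.34 CPM with LPS/siponimod. Csf3r made up most of this sum (adjusted p = 0.057, with the block a downregulated DEG at 0.00853), Mpo and Elane were at 0, and S100a8 was a downregulated DEG, also in 3 of the 6 fits with 1 library left out, not in those without LPS replicates 1 or 2 or without LPS/siponimod replicate 3. The 4 endothelial markers with a row summed to 167, 214 and 93.5 CPM against 39.6, 83.9 and 28.2 CPM, Cdh5 having the most counts over the 6 libraries, and Flt1 was a downregulated DEG, also in all 6 fits with 1 library left out. Cdh5 (adjusted p = 0.0684) and Pecam1 (0.0785) were downregulated DEGs with the block (0.0142 and 0.00966). Tek, the remaining endothelial marker with a row, had higher means with LPS/siponimod, 0.944 against 1.80 CPM (log2 FC 0.93, quasi-likelihood adjusted p = 0.223). The sums of both lists were lowest in replicate 3 of each group.

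Neuronal markers summed to 1.67, 1.04 and 11.5 CPM with LPS and 6.39, 9.18 and 17.1 CPM with LPS/siponimod, and oligodendrocyte lineage markers to 5.37, 5.37 and 36.0 CPM against 11.4, 10.3 and 22.6 CPM. Snap25 of the former, with 0, 1 and 1 counts against 94, 153 and 81, and Mbp of the latter were upregulated DEGs, each 1 of the 7 and 9 genes of its list, with Tubb3 the neuronal marker of the most counts (adjusted p = 0.251, with the block an upregulated DEG at 0.0316). Among further oligodendrocyte lineage genes, Olig1 had 1, 5 and 515 counts against 2, 3 and 17, Olig2 1, 2 and 240 against 1, 3 and 40, Pdgfra 5, 4 and 284 against 1, 4 and 81, and Sox10 0, 3 and 96 against 0, 3 and 15. These 4 did not pass the filter on low counts, and most of their counts were in LPS replicate 3. Cspg4 had a log2 FC of -0.94 (adjusted p = 0.708), which was 1.27 without LPS replicate 3. Snap25 was a DEG in all 6 fits with 1 library left out and Mbp in 3, the call being lost without LPS replicate 2 and without LPS/siponimod replicates 1 or 3. Astrocyte markers summed to 42.5, 21.0 and 21.7 CPM against 27.5, 26.8 and 57.7 CPM, mostly Slc1a3, and none of 3 tested was a DEG. None of the 3 had an unadjusted quasi-likelihood p under 0.05, beside 43.7% of all genes. DESeq2 called none of them, beside 32.5% of all genes. Fibroblast and meningeal markers summed to 5.07, 4.00 and 3.90 CPM in LPS-treated cells and 11.7, 4.17 and 8.17 CPM with LPS/siponimod, with Ptgds at 0. Dcn, the proteoglycan decorin, rose from 3, 0 and 4 counts to 456, 49 and 178 counts (log2 FC 6.28, SE 1.18, quasi-likelihood adjusted p = 0.0155), and was a DEG in 3 of the 6 fits with 1 library left out. Its adjusted p was 0.0561 and 0.0591 without LPS replicates 1 and 2 and 0.0688 without LPS/siponimod replicate 1, and 0.053 by limma-voom. Col1a1, a fibrillar collagen gene, had lower values in all LPS/siponimod libraries, with 3.05, 2.98 and 2.39 CPM against 1.33, 1.37 and 1.85 CPM (-0.89, adjusted p = 0.0526). It was a downregulated DEG by DESeq2 (0.0115), by limma-voom (0.0447) and without LPS replicate 3 (0.0473). Col1a2 (0.26, 0.777) and Col3a1 (-0.67, 0.461) did not pass. Mast cells, a known source of prostaglandin D2 and leukotrienes, were represented by a summed CPM of at most 1.27, with Cpa3, Fcer1a and Ms4a2 at 0, and of the lymphocyte markers Cd3e and Nkg7 were at 0.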

How the data were processed

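Single-end reads of polyA-captured RNA were converted with bcl2fastq (version 2.20.0.422) and referred to the build mRatBN7.2, per the submitters' processing notes. The authors trimmed and mapped them in the CLC Genomics Workbench and deposited total read counts per gene, 1 table per library, without normalization. The handling of strand, introns and reads matching several genes is not stated, so that near-identical genes are uncertain. A row without a name (1 row) was left out.

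The software was R 4.3.3, edgeR 4.0.16 and, for voom, limma 3.58.1. The filter filterByExpr (minimum count 10, minimum total 15) kept 11977 of 23139 genes, and TMM factors lay between 0.939 and 1.056. The test was glmQLFit and glmQLFTest on condition alone. Benjamini-Hochberg adjustment ran over every tested gene, with limits of 0.05 for the adjusted p and 1.5 for the FC. SE is the size of the log2 FC divided by the square root of the F statistic. Pair differences used a prior count of 2, and count ratios added 0.5. With 3 libraries per group, an exact permutation test cannot go below p = 0.1. At this depth 3 counts per library were taken as the floor, which covers counting error only.

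Alternatives were RLE scaling, library totals alone, limma-voom, DESeq2 1.42.0, the likelihood ratio test of edgeR, a minimum mean of 1 CPM (10885 genes), keeping genes with as little as 1 count (17057 genes), the replicate number as a block, and each library left out. After centring on group means, same-numbered libraries correlated over genes at 0.42, 0.545 and 0.611, and others between -0.534 and 0.0856. Replicate numbers were accordingly taken as pairs, a reading that rests on these data alone. No libraries were identical.

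Named were all members, every DEG of the other pathway genes with the gene of highest mean CPM in each role and any removed by the filter at a mean of 1 CPM or more, up to 3 regulators per direction with the smallest adjusted p in each role, and the 5 genes most correlated with Ptgs2. Lpcat3, Tbxas1, Lta4h, Alox15, Zfp36, Zadh2, Hpgd, Ltc4s, Ptgds, Ptger3, Akr1b8, Akr1b10 and the other regulator DEGs were singled out after their values were seen. Members, lists and tests were chosen with earlier results of these data known. Ptgr3 was matched under its older symbol Zadh2. Promoters came from RefSeq tables of GRCr8, a build other than that of the counts, and were used for sequence only. The procedure was tested on simulated data.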

Additional observations from a re-analysis of the deposited data

How the results depend on the processing

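No member changed direction past the threshold under any alternative. Leaving out 1 library moved the number of DEGs most, between 651 (without LPS replicate 2) and 3713 (without LPS replicate 3), with 1743 without LPS replicate 1 and 783 and 1035 without LPS/siponimod replicates 1 and 3. It moved the number of members called between 0 and 4, of other pathway genes between 3 and 13, and of regulators between 3 and 12. These fits have fewer libraries. The log2 ratio difference of Ptgs2 to Ptgs1 counts then ranged from 4.26 to 6.35 and that of Ptgs2 to Alox5 counts from 8.22 to 10.5. With the replicate block, 4074 genes, 4 members, 16 other pathway genes and 14 regulators were called, and the mean differences of the ratios within pairs were 4.98 and 9.15, where 3 pairs allow no two-sided p below 0.25. The block changed no call of a member other than Pla2g4a and Alox5. Of 126 member values under alternatives, 113 kept their side of the threshold, 8 passed it newly and 5 no longer did, all of the latter in fits with 1 library left out. The cause of these shifts was not tested. Tbxa2r and Cysltr2 rest on at most 47 and 26 counts per library.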
